A study of Mus musculus with 22 samples.

Results

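Both checkpoint antibodies were given on top of entinostat, and the comparison here sets the tumour G-MDSCs of mice that received anti-CTLA-4 with the drug beside those of mice that received anti-PD-1 with it. Samples were chosen by column name: 4 columns begin with ENT + CTLA4 and 4 with ENT + PD1 and a number, together 8 of the 22 samples in the series. One of the names, ENT + CTLA4 2, stands on 2 columns, which are called samples a and b, and the others are anti-CTLA-4 samples 1 and 3 and anti-PD-1 samples 1 to 4. All 655 endogenous genes of a myeloid probe panel were read in each sample with the NanoString nCounter system, which counts colour-coded probes hybridised to transcripts.

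The mice were FVB-Neu-N females of 7 to 8 weeks. They carried mammary tumours from 50000 NT2.5 cells placed in the mammary fat pad, and treatment ran for 3 weeks from day 3 after implantation. Entinostat at 5 mg/kg was gavaged daily in 0.5% methylcellulose to both groups. Mice of one group received anti-CTLA-4 (clone 9H-10) and those of the other anti-PD-1 (clone RPM1-14), each at 100 µg per mouse intraperitoneally 2 times a week. The other samples, used for a shared estimate of spread and as a scale for levels, came from mice given entinostat with both antibodies (4 samples, the triple combination), entinostat alone (4) and vehicle with isotype antibodies (6). Every tumour came from the single NT2.5 line. The sources used here do not say whether anti-HER2 was added, nor whether each sample is a separate animal, so each p-value reflects variation among these samples, part of which may be technical. The series asked for transcript changes behind a loss of G-MDSC function under treatment.

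G-MDSCs, granulocytic myeloid-derived suppressor cells, are neutrophil-like cells that build up in tumours and restrain T cells through arginase, prostaglandin E2, reactive oxygen and ligands such as PD-L1. Neutrophils store S100a8 and S100a9 as calprotectin, follow CXC chemokines through Cxcr2, and answer microbial or tissue signals with NF-kB-driven cytokines such as Il1b. Entinostat inhibits class I histone deacetylases. PD-1 and CTLA-4 are inhibitory receptors best known on T cells, so the antibodies are not aimed first at the cells that were profiled.

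The label of the cells was borne out only in part. Ly6g, the surface protein used for the magnetic selection, was below the background limit of 29.3 normalized counts in all 8 samples, at 1.74 to 8.86 with anti-CTLA-4 and 5.84 to 7.48 with anti-PD-1. The mean log2 levels of the granule genes Mpo, Elane, Ctsg and Mmp8 were also below it, which is not counted here against the label. The other 8 measured neutrophil markers exceeded it in the mean log2 level of at least 1 group, led by S100a9 and S100a8, with 6 to 8 above it in each anti-CTLA-4 sample and all 8 in each anti-PD-1 sample. Cdh1, the E-cadherin gene of epithelial cells, stood at 764 to 1310.5 normalized counts with anti-CTLA-4 and 820.1 to 918 with anti-PD-1, far above background in every sample.

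Before any gene is compared, 1 sample stands apart from its group. Over the 8 neutrophil markers tested, the mean log2 level was 7.02, 7.70 and 6.87 in anti-CTLA-4 samples 1, 3 and b and 9.37 in sample a, against 9.31 to 9.69 in the 4 anti-PD-1 samples. Sample a was thus at the level of the anti-PD-1 group, while the other 3 lay below every anti-PD-1 sample. The same sample lay within the anti-PD-1 range in the worth of 1 barcode count, which was 1.48 normalized counts in sample a and 0.400 to 0.614 in the other 3 anti-CTLA-4 samples, against 0.959 to 1.5 with anti-PD-1. Those 3 samples had more raw housekeeping counts (geometric mean 291 to 451) than sample a (124) and the anti-PD-1 samples (119 to 186), so the deposited scaling lowered their values most. Total barcode counts of the genes were 165662 to 443846 with anti-CTLA-4 and 178490 to 260317 with anti-PD-1. Results include sample a, and values without it are given for the counts, the main lists and several leading genes.

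The column headers begin with 1 of 2 pairs of a date and a number, and each pair is read here as a cartridge. All anti-CTLA-4 samples stood on cartridge 2 and all anti-PD-1 samples on cartridge 1, so their headers also carry different dates. Cartridge, date and antibody cannot be told apart within the 8 samples. Vehicle and triple combination samples lay on both cartridges, and a fit with cartridge as a block rests on them. The 3 vehicle samples on cartridge 1 had neutrophil marker means of 7.52, 7.55 and 9.35 on the log2 scale and the 3 on cartridge 2 had 7.57, 7.69 and 8.36, so the cartridges overlapped in that group. The values 7.57 and 7.69 are those of vehicle samples V2 and V1. The sources used here do not say what sets these apart from the numbered vehicle samples, which limits the overlap and the block fit. In the triple combination the 1 sample on cartridge 1, at 8.53, lay below the 3 on cartridge 2, at 8.83, 8.93 and 9.05. The column name of that cartridge 1 sample, ENT + PD1 + CTLA4 1, also stands on the cartridge 2 column at 8.93. Neither column could be matched to a title, which limits the block fit further. Spike-in positive controls, which do not depend on the tissue, had geometric means of 571 to 793 raw counts with anti-CTLA-4 and 829 to 1012 with anti-PD-1 (exact permutation test, two-sided p = 0.0286, the smallest that 4 against 4 samples can give). In bulk RNA of this kind, fewer cells of a type and less RNA per cell cannot be told apart.

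With anti-CTLA-4 in place of anti-PD-1, genes of neutrophils, of inflammation and of leukocytes in general were lower, and only a few genes were higher. Of 420 genes whose mean log2 level was above background in at least 1 of the 5 groups, 130 passed at an adjusted p under 0.05, which is 31% of those tested. Of these, 124 were lower with anti-CTLA-4 (29.5% of those tested) and 6 were higher (1.43%). These shares are the scale for the counts of passing genes in every list below. Here and below, differences are anti-CTLA-4 minus anti-PD-1 on the scale of log2(normalized count + 1), with the standard error (SE), and adjusted p-values are limma's, two-sided, Benjamini-Hochberg over the 420 genes. Among the 124 lower genes the anti-PD-1 level was 1.25 to 4.13 times the anti-CTLA-4 level, with a median of 3.11. The median difference over all 420 genes was -0.45.

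In 53 of the 124 lower genes every anti-CTLA-4 sample lay below every anti-PD-1 sample, and over all tested genes 56, or 13.3%, were separated this way. In the other 71 genes 3 anti-CTLA-4 samples lay below all anti-PD-1 samples and the exception was sample a each time, within the anti-PD-1 range in 68 and above it in 3. Without sample a, 207 genes passed, 190 lower and 17 higher, and 123 of the 124 lower genes were still among them. Leaving out anti-CTLA-4 sample 1 gave 49 genes, and leaving out sample b gave 52. With cartridge as a block the median difference of the 124 genes was -1.74, against -1.64 without the block, and 2 of them passed, Vegfa (-1.23, adjusted p = 0.0320) and Was (-2.22, adjusted p = 0.0391), with 169 genes at an unadjusted p under 0.05. With the block and without sample a, 202 genes were lower and 9 higher. In a limma fit of the 8 samples alone none passed, with 151 at an unadjusted p under 0.05. The fit of all 22 samples takes 1 spread per gene for all 5 groups. The spread was unequal, with an SD of the neutrophil marker mean of 1.15 with anti-CTLA-4 and 0.18 with anti-PD-1. Where the anti-CTLA-4 samples varied this much, the printed SEs and p-values can be too small.

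**Figure D1:**
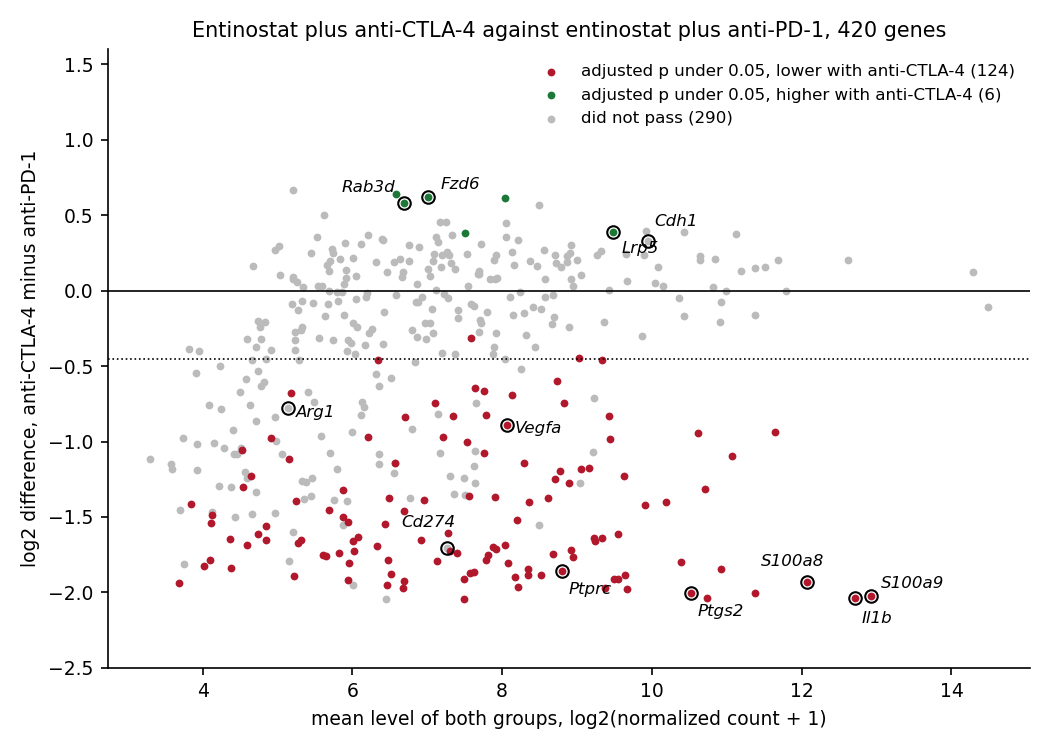
Log2 difference, anti-CTLA-4 minus anti-PD-1 (vertical axis), against the mean log2 level of both groups (horizontal axis) for 420 genes, each point a gene, with 124 lower and 6 higher genes in colour, and the dotted line at the median of -0.45. The lower genes span the whole range of levels and reach -2.05, while the higher genes that passed reach 0.64.

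Neutrophil genes fell nearly throughout. S100a9, a subunit of the calcium-binding calprotectin, had 2107, 4309, 12459.7 and 1959 normalized counts in anti-CTLA-4 samples 1, 3, a and b, against 16171, 14942, 13679 and 18314 in anti-PD-1 samples 1 to 4. The groups did not overlap, although sample a came close to the lowest anti-PD-1 sample. The difference was -2.02 ± 0.48 (SE, adjusted p = 0.00848), and -2.59 without sample a. Its partner S100a8 had 1308, 2309, 7226 and 1079 normalized counts with anti-CTLA-4, against 8618, 8277, 7339 and 9596 with anti-PD-1. It fell by 1.93 on the log2 scale (SE 0.50, adjusted p = 0.00970), again with no overlap.

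Cxcr2, the receptor that draws neutrophils along CXC chemokine gradients, had 92.3, 164, 419.5 and 71.3 normalized counts with anti-CTLA-4, against 485, 401, 471 and 542 with anti-PD-1. Here sample a lay inside the anti-PD-1 range, and the difference was -1.69 ± 0.42 (SE, adjusted p = 0.00848). Csf3r, the receptor for the granulocyte growth factor G-CSF, had 147, 225, 607 and 124 normalized counts with anti-CTLA-4, against 802, 719.7, 706 and 779.7 with anti-PD-1, with no overlap. It fell by 1.74 (SE 0.41, adjusted p = 0.00757), and Trem1, a receptor that amplifies neutrophil inflammation, by 1.85 (SE 0.46, adjusted p = 0.00849).

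Of the 14 tested genes of neutrophil granules, calprotectin and maturation, 12 fell and none rose, with a median difference of -1.73 beside -0.45 over all tested genes. The list's summed level was 4455 to 23136 normalized counts with anti-CTLA-4 and 24770.1 to 32312 with anti-PD-1. Those that did not pass, named after their values were seen, were Ceacam1, an adhesion molecule (-0.13), and Pglyrp1, a peptidoglycan-binding granule protein, at 692 ± 112 with anti-CTLA-4 and 693 ± 127 with anti-PD-1 (SD, n = 4 each). The median was -1.24 after median centring, -1.17 with edgeR and TMM factors, -1.71 with the cartridge block and -2.26 without sample a. The neutrophil marker list, which shares 8 tested genes with it, had 8 of 8 lower.

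The stretches just upstream of 4 of these genes are shown because the genes are abundant and fell by about 2 on the log2 scale, S100a8 and S100a9 in the neutrophil group and Il1b and Ptgs2 in the inflammatory group described next. Each is the 250 bases before the transcript start from RefSeq, build GRCm38.p6, 5′ to 3′ on the strand of the gene. Capitals mark matches on either strand to TTNNGNAA, the C/EBP motif. C/EBP factors are the transcription factors of the granulocyte programme.
S100a8 (chr3:90668821-90669070, plus strand): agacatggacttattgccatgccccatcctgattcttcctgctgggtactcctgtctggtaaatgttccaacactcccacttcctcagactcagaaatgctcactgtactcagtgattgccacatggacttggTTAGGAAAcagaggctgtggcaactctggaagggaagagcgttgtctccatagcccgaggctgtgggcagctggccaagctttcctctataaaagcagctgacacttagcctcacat
S100a9 (chr3:90695722-90695971, minus strand): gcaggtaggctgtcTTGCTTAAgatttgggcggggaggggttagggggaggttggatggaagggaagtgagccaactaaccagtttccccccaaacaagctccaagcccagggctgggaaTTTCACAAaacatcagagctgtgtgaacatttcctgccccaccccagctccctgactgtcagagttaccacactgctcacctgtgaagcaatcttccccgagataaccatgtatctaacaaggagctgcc
Il1b (chr2:129371140-129371389, minus strand): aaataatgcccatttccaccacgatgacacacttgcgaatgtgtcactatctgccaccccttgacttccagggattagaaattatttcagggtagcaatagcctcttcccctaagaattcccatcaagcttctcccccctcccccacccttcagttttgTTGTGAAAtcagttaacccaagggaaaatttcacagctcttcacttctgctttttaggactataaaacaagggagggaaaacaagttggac
Ptgs2 (chr1:150099781-150100030, plus strand): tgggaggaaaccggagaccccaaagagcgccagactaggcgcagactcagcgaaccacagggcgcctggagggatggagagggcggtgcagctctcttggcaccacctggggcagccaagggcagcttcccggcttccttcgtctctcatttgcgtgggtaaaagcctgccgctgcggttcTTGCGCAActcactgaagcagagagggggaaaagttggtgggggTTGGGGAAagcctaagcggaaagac

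The C/EBP letters were matched 1 time upstream of S100a8 and of Il1b and 2 times upstream of S100a9 and of Ptgs2, and no match overlapped another. They occur in 36.8% of all 32851 upstream windows of the same length. A strict form of the NF-kB motif, GGG and TTCC with any 3 bases between (found in 4.65% of all windows), was not matched in these 4 windows on either strand. Nor was TGANTCA, for AP-1 (6.75%). Other forms of the NF-kB motif were not searched. A match of letters is a description of the sequence, and the panel measured no binding.

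Inflammatory genes driven by NF-kB and TNF were lower with anti-CTLA-4, with sample a again nearest to the anti-PD-1 group. Il1b, the cytokine interleukin-1 beta, had 2123, 3539, 8746 and 1850.3 normalized counts in anti-CTLA-4 samples 1, 3, a and b, against 14356, 12768, 12632 and 14897 with anti-PD-1. Every anti-CTLA-4 sample was below every anti-PD-1 sample, and the difference was -2.04 ± 0.44 (SE, adjusted p = 0.00701). Ptgs2, the cyclooxygenase that leads to prostaglandin E2, had 376, 896, 1769.6 and 487 normalized counts, against 3012, 3067, 2587 and 3177, also without overlap. It fell by 2.01 (SE 0.46, adjusted p = 0.00717).

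Of 25 tested genes of the list, 18 fell and none rose, with a median difference of -1.62, and -1.13 after median centring, -1.03 with TMM factors, -1.66 with the cartridge block and -2.23 without sample a. Among the 18 were Gadd45b, a stress-induced growth arrest protein (-1.97 ± 0.44, SE), Tnfaip3, an inhibitor of NF-kB that NF-kB itself induces (-1.85 ± 0.42), the inflammasome sensor Nlrp3 (-1.91 ± 0.56) and the NF-kB cofactor Nfkbiz (-1.40 ± 0.32). Tnfaip3 had 659, 960.4, 2729.8 and 620.4 normalized counts with anti-CTLA-4, against 3823, 3876, 3046 and 4005 with anti-PD-1. For Nlrp3 sample a, at 1347, lay within the anti-PD-1 range of 1214 to 1689, while the other 3 were at 203 to 306. Il6, the cytokine that drives STAT3, did not pass at -1.95 ± 0.98 (SE, adjusted p = 0.147), with 7.54 to 223 normalized counts with anti-CTLA-4 and 75.8 to 201 with anti-PD-1, and was named after its values were seen.

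Chemokines and their receptors fell in part. Of 3 tested CXC chemokines that attract neutrophils 2 fell, with a list median of -1.27. Cxcl2, a ligand of Cxcr2, had 460.5, 760.2, 2880.4 and 501 normalized counts with anti-CTLA-4, against 3408, 3753, 2681 and 4187 with anti-PD-1 (difference -2.04 ± 0.50, SE, adjusted p = 0.00848). Sample a was above anti-PD-1 sample 3 and below the others. Cxcl1, the other ligand that passed, had 1066 to 1178 in 3 anti-CTLA-4 samples and 3486 in sample a, against 2304 to 3570.0 with anti-PD-1 (-1.09 ± 0.35, SE, adjusted p = 0.0238). Among 8 tested CC chemokines 2 fell, Ccl3 (-1.66 ± 0.55) and Ccl4 (-1.37 ± 0.45), both attractants of monocytes and lymphocytes, beside 29.5% of all tested genes, and the list's median was -1.18.

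Of 9 tested chemoattractant receptors 7 fell, with a median of -1.69. Ccrl2, a receptor that presents the attractant chemerin without signalling itself, had 735, 1389, 3755 and 802 normalized counts with anti-CTLA-4, against 5474, 4890.2, 4440.4 and 6751 with anti-PD-1, with no overlap. It fell by 2.01 (SE 0.46, adjusted p = 0.00701). The receptor for complement fragment C5a, C5ar1, fell by 1.88 (SE 0.50), Ccr1, a receptor for Ccl3, by 1.81 (SE 0.44), and Cxcr4, the receptor that holds neutrophils in the marrow, by 1.64 (SE 0.40).

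Adhesion and activating receptors were lower too. Of 12 tested leukocyte integrins, selectins and their ligands 9 fell (median -1.57), among them Itgb2, the shared beta chain of leukocyte integrins, with 19.6 to 139 normalized counts with anti-CTLA-4 and 146 to 205 with anti-PD-1 (-1.88 ± 0.49, SE, adjusted p = 0.00970). Its partner Itgam, the CD11b chain of myeloid cells, fell by 1.6 (SE 0.44), Selplg, the ligand of P-selectin, by 1.75 (SE 0.43), and Itga5, the fibronectin receptor chain, by 1.65 (SE 0.43). Of 8 Fc receptor and ITAM signalling genes 5 fell (median -1.65), including the adaptor Tyrobp, the kinase Syk, the guanine nucleotide exchange factor Vav1 and the IgG receptor Fcgr4.

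Tyrobp, which couples several myeloid receptors to Syk, had 233, 413, 1337 and 219 normalized counts with anti-CTLA-4, against 1621, 1490.4, 1435 and 1957 with anti-PD-1. The groups did not overlap, and the difference was -1.97 ± 0.49 (SE, adjusted p = 0.00849). Clec5a, a lectin receptor that signals through Tyrobp, fell by 1.96 (SE 0.49), with 70.2 to 508 normalized counts with anti-CTLA-4 and 527 to 712 with anti-PD-1. Vav1 fell by 1.91 (SE 0.43) and Syk by 1.87 (SE 0.46). Siglecf, an inhibitory lectin best known on eosinophils and also described on tumour neutrophils, had 99.9, 175, 323 and 85.2 normalized counts, against 573, 511, 506 and 644, and fell by 1.90 (SE 0.37, adjusted p = 0.00701).

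**Figure D2:**
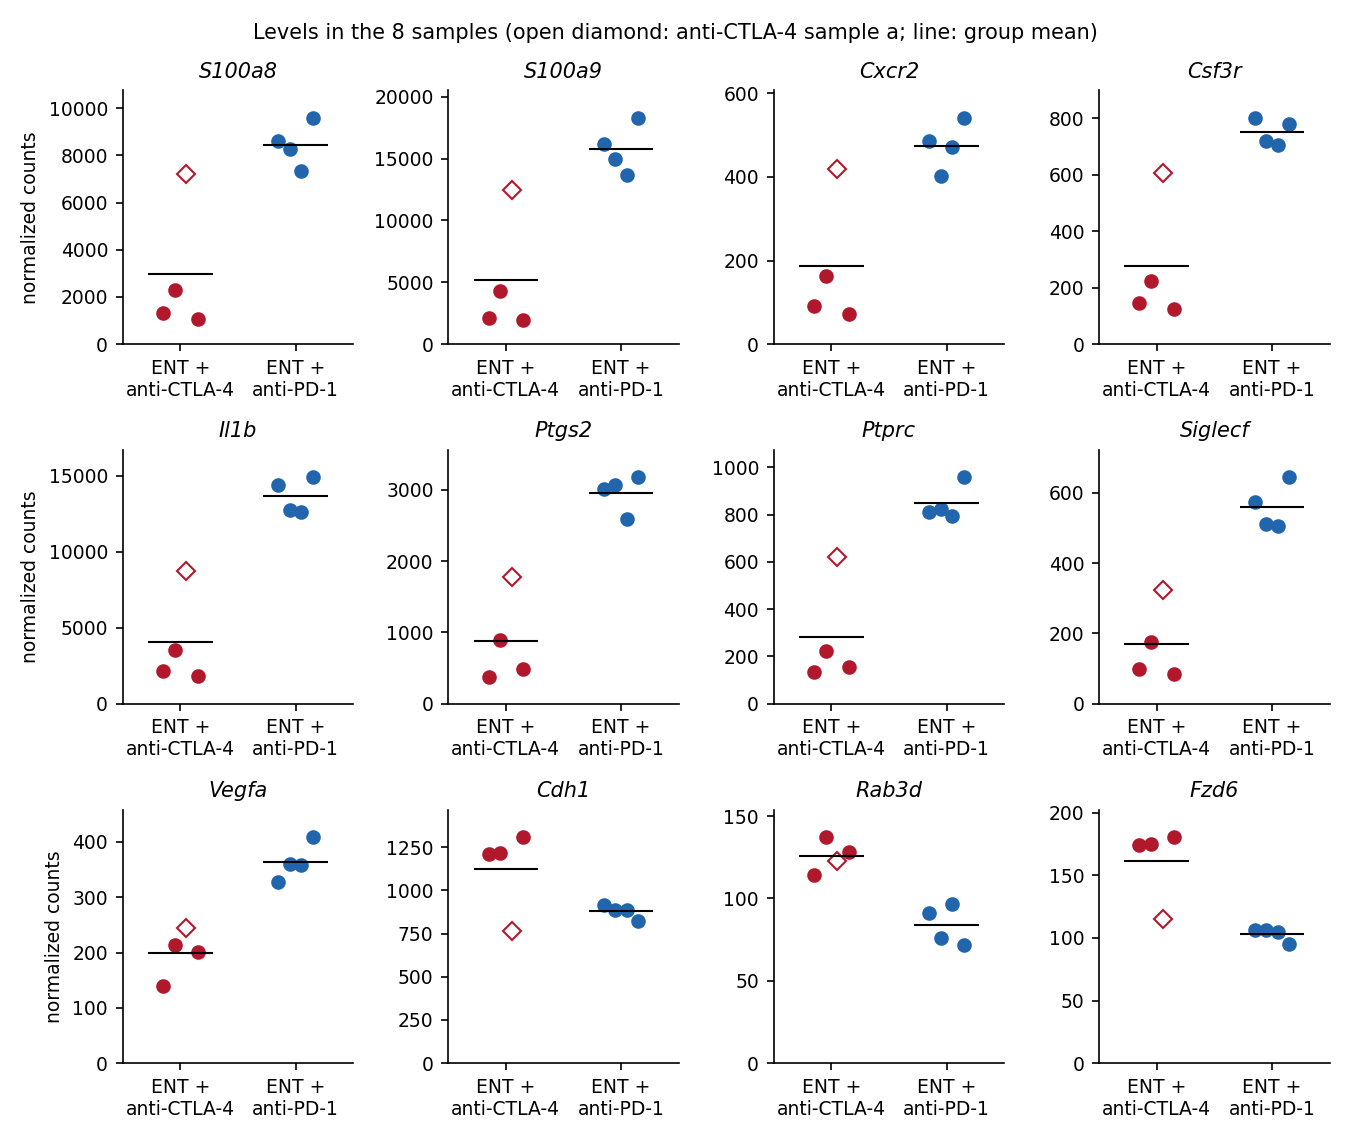
Normalized counts (vertical axes, each from 0) of 12 genes in the 4 anti-CTLA-4 samples, left, and the 4 anti-PD-1 samples, right, both with entinostat (ENT), with a line at each group mean and sample a as an open diamond. In S100a8, S100a9, Csf3r, Il1b, Ptgs2, Ptprc and Siglecf all 4 anti-CTLA-4 samples lie below the anti-PD-1 samples with sample a nearest to them, while in Rab3d and Fzd6 they lie above.

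Receptors of microbial products fell about as often as the tested genes at large (29.5%). Of 9 Toll-like and NOD receptors with their adaptors 3 fell, Nlrp3, Tlr6 (-1.45 ± 0.30, SE) and the adaptor Myd88 (-1.36 ± 0.35), with a list median of -1.08. Tlr13, a sensor of bacterial ribosomal RNA in the mouse that the list did not hold, had 31.2, 60.2, 134 and 28.4 normalized counts with anti-CTLA-4, against 184, 184, 182 and 259 with anti-PD-1 (-1.93 ± 0.42, SE, adjusted p = 0.00701). Alox5, the first enzyme of leukotriene synthesis, had 27.6, 47.9, 115 and 24.4 normalized counts, against 162, 161, 162 and 212, and fell by 1.95 (SE 0.45, adjusted p = 0.00701). In both genes sample a was the highest of its group and still below the anti-PD-1 samples.

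Of 12 genes of the interleukin-6 family, STAT3 and C/EBP 5 fell, beside 29.5% of all tested genes. The list's median was -0.89, and -0.40 after median centring. Among the 5 were Osm, a cytokine that neutrophils release (-1.72 ± 0.56, SE), and Socs3, a feedback inhibitor of STAT3 (-1.39 ± 0.44). Of 5 genes of the NADPH oxidase and itaconate 2 fell, set beside the same 29.5%, among them Acod1, the enzyme that makes itaconate (-1.87 ± 0.60, SE). In Acod1 sample a, at 483, lay within the anti-PD-1 range of 332 to 489, and the other 3 were at 39.2 to 82.3 normalized counts.

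Suppressive effectors, the genes through which G-MDSCs are thought to restrain T cells, were mixed. Of 11 tested 4 fell and none rose, a share near the 29.5% of all tested genes, with a median of -0.78, which was -0.29 after median centring. Vegfa, the angiogenic factor, had 139, 214, 244 and 200.1 normalized counts with anti-CTLA-4, against 328, 361, 359 and 409 with anti-PD-1. The groups did not overlap, sample a lay near sample 3 of its own group, and the difference was -0.89 ± 0.19 (SE, adjusted p = 0.00701). It was -0.40 after median centring (limma adjusted p = 0.104). The others that fell were Ptgs2, Cebpb, a C/EBP factor of emergency granulopoiesis (-0.94 ± 0.24), and the hypoxia factor Hif1a (-0.46 ± 0.17), whose sign turned under median centring (0.029), quantile normalization (0.21), TMM factors (0.023) and DESeq2 (0.036).

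Arg1, the arginase that depletes arginine around T cells, stood near the background limit in most samples, with 22, 28.2, 25.1 and 28.4 normalized counts with anti-CTLA-4, against 25.4, 23.4, 46.0 and 147 with anti-PD-1. The groups overlapped and 1 anti-PD-1 sample was far above the rest (difference -0.78 ± 0.54, SE, adjusted p = 0.287). Cd274, which encodes PD-L1, the ligand of PD-1, had 35.2, 60.2, 339.7 and 68.4 normalized counts, against 316, 293, 196 and 320.0. Sample a was the highest of all 8, and the difference of -1.70 ± 0.71 did not pass (SE, adjusted p = 0.0767). Without sample a it was -2.37 with an adjusted p of 0.00650.

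Ligands that act on T cells were lower in part. Of 7 co-stimulatory and checkpoint genes 3 fell, beside 29.5% of all tested genes, with a list median of -1.50. They were Icosl (-1.74 ± 0.46, SE), Cd80, a ligand of CTLA-4 and CD28 (-1.50 ± 0.42), and Cd40 (-1.49 ± 0.52). Cd40 was at or below the background limit in 3 of the anti-CTLA-4 samples and near it elsewhere, with means of 12.6 and 29.4 normalized counts. Of 6 interferon response genes 2 fell, among them Isg15, a ubiquitin-like interferon product (-0.97 ± 0.32, SE), a share again near 29.5%. The list's median was -0.50, and after median centring it was -0.018 and none of the 6 passed as lower.

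Other programmes held few passing genes. None of 6 MHC class I peptide loading genes passed (median -0.15, and 0.34 after median centring), and none of 4 TGF-beta and SMAD genes (median -0.11, 0.37 centred). None of 4 MHC class II genes passed either, although all 4 differences were negative (median -1.31, and -2.11 without sample a). Of 12 immediate early and stress genes 4 fell, a share near that of all tested genes, while the median was -0.12. They were Gadd45b, the phosphatases Dusp2 (-1.88 ± 0.45, SE) and Dusp1 (-0.94 ± 0.23), which switch off MAP kinases, and the nuclear receptor Nr4a2 (-1.0 ± 0.29). Of 5 cell cycle genes Cdkn1a, the p21 inhibitor of cyclin-dependent kinases, fell by 1.17 (SE 0.25, adjusted p = 0.00701), and the other 4 had positive differences that did not pass. One of 5 complement genes fell (C5ar1), and of 4 hypoxia and angiogenic genes Vegfa and Hif1a, beside 29.5% of all tested genes.

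**Figure D3:**
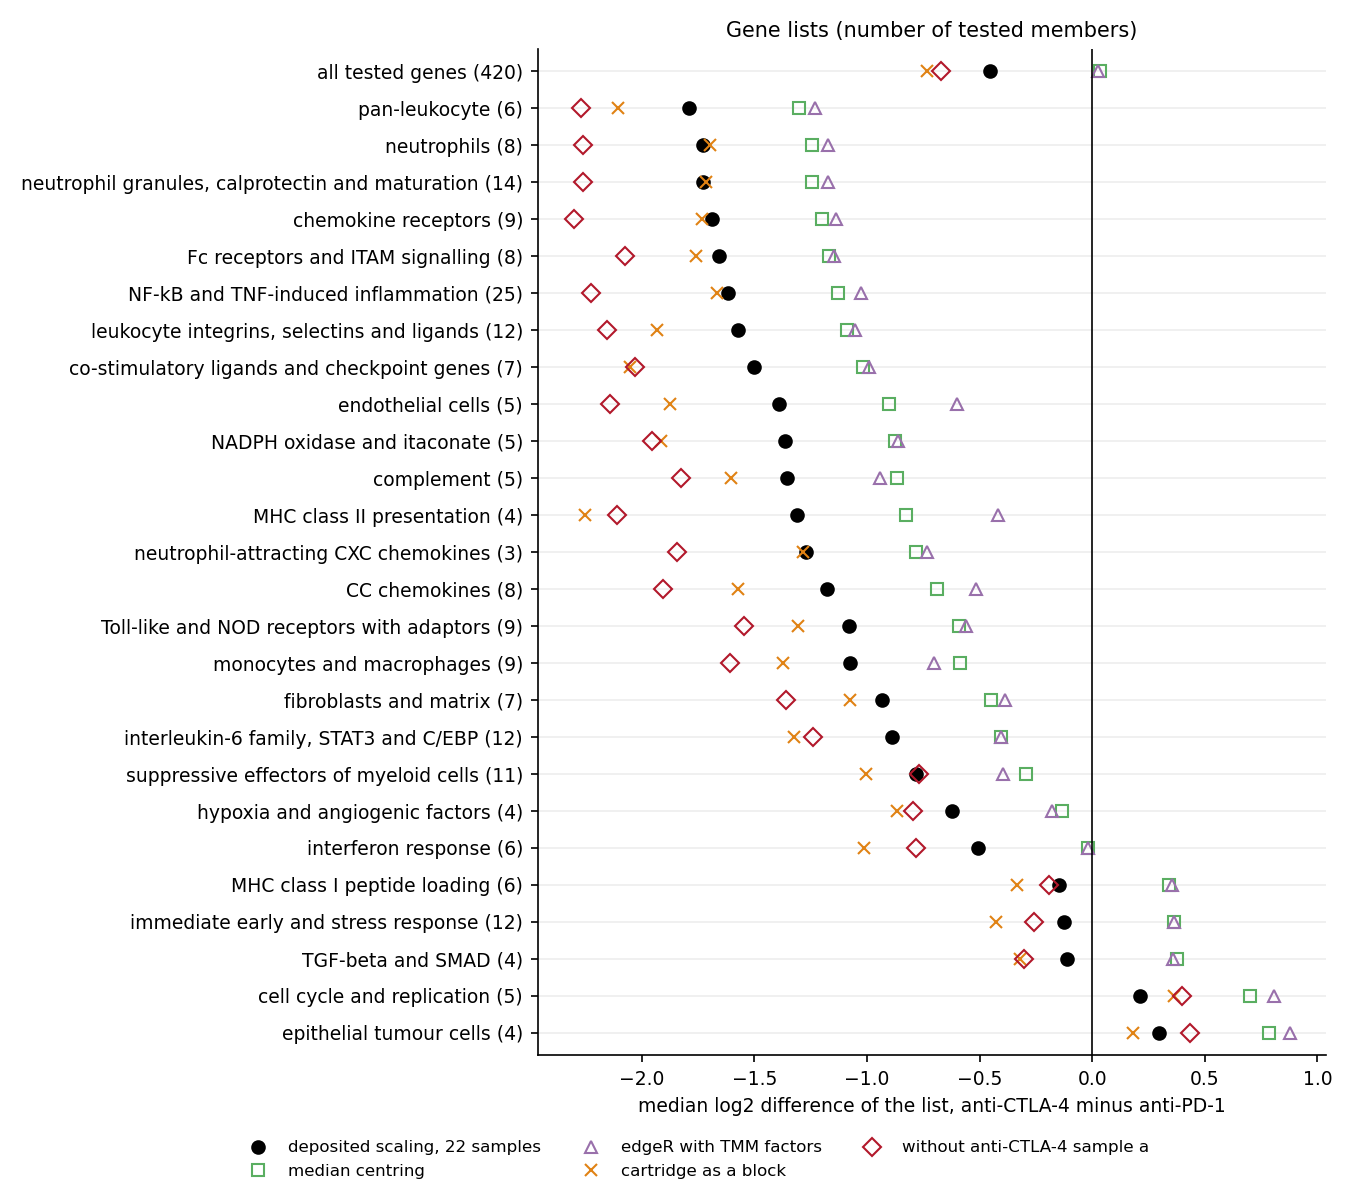
Median log2 difference, anti-CTLA-4 minus anti-PD-1 (horizontal axis), of each gene list with at least 3 tested genes, under the deposited scaling (filled circles) and under 4 other settings (open symbols and crosses). Pan-leukocyte (-1.79) and neutrophil (-1.73) lists lie farthest left under the deposited scaling, and median centring and TMM factors move every list to the right.

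The 6 genes that were higher with anti-CTLA-4 rose by less. Rab3d, a small GTPase of secretory vesicles, had 114, 138, 123 and 128 normalized counts in anti-CTLA-4 samples 1, 3, a and b, against 91.3, 75.9, 96.9 and 72.1 with anti-PD-1. The groups did not overlap and sample a lay among its own group (difference 0.58 ± 0.15, SE, adjusted p = 0.00970). Fzd6, a Wnt receptor, had 174, 175, 115 and 181, against 106, 107, 105 and 95.1, where sample a was close to the anti-PD-1 samples (0.62 ± 0.19, SE, adjusted p = 0.0178).

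Lrp5, a Wnt co-receptor, rose by 0.39 (SE 0.14, adjusted p = 0.0453), with 703 to 979 normalized counts with anti-CTLA-4 and 553 to 670.4 with anti-PD-1. Fyn, a kinase of the Src family, rose by 0.38 (SE 0.12, adjusted p = 0.0217), with 176 to 229.6 and 151 to 166. Pdgfra, a growth factor receptor of fibroblasts, rose by 0.61 (SE 0.21), with sample a, at 213, inside the anti-PD-1 range of 183 to 235. Tgfa, a ligand of the EGF receptor, was named after its values were seen and rose by 0.64 (SE 0.19), with 126, 129.5 and 155 normalized counts in 3 samples and 78.3 in sample a, against 71.0 to 79.3 with anti-PD-1. In all, 8 tested genes, or 1.9%, had every anti-CTLA-4 sample above every anti-PD-1 sample, and 4 of them passed, the genes Rab3d, Fzd6, Lrp5 and Fyn. None of the 6 passed with cartridge as a block, where their differences were 0.31 to 0.59.

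How many genes count as higher depended on the scaling. Median centring gave 99 lower and 29 higher genes, quantile normalization 78 and 43, edgeR with TMM factors 98 and 70, and DESeq2 96 and 102. All 99, 78, 98 and 96 of these lower genes were among the 124. These methods remove a shift shared by most genes, here -0.45, and the 124 genes kept a median difference of -1.15, -0.84, -1.07 and -1.04 under them.

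**Figure D4:**
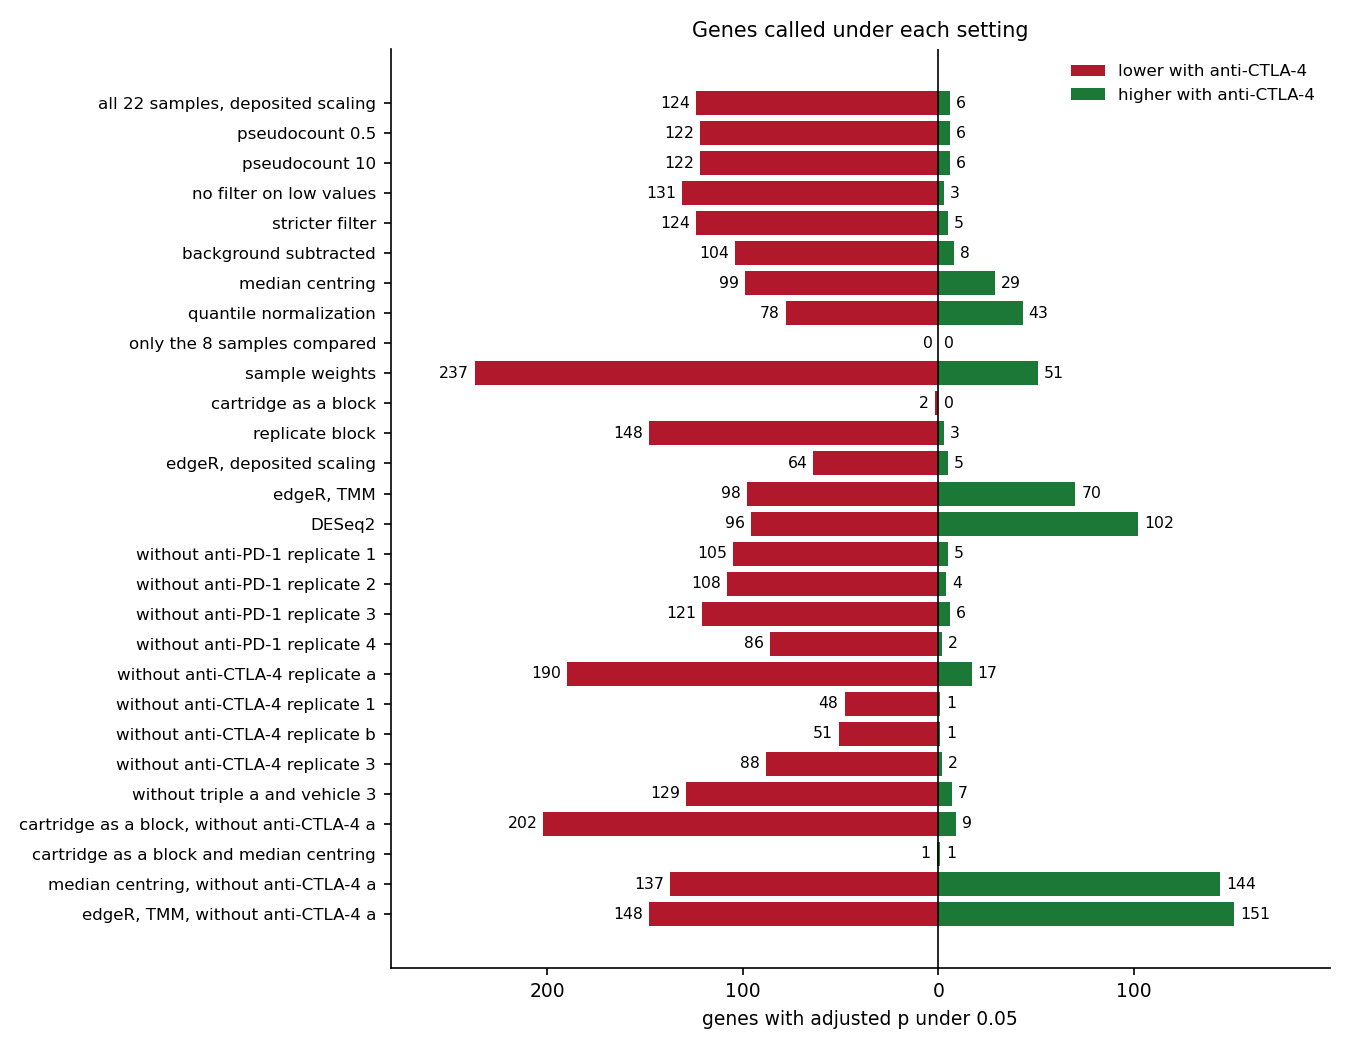
Number of genes with an adjusted p under 0.05 (horizontal axis), lower with anti-CTLA-4 to the left and higher to the right, under the fit described here (top bar, 124 and 6) and each other setting. The count is lowest with the 8 samples alone (0) and with the cartridge block (2, with or without median centring), and the 4 settings without sample a give 207 to 299 genes.

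Of the other marker lists, the pan-leukocyte genes moved with the neutrophil and inflammatory genes. Monocyte, endothelial and fibroblast markers also had negative medians, given below, while the epithelial median was positive. All 6 tested pan-leukocyte genes fell, with a median of -1.79, and Ptprc, which encodes CD45, had 136, 224, 620.4 and 155 normalized counts with anti-CTLA-4, against 809.8, 825, 796 and 958 with anti-PD-1 (-1.86 ± 0.40, SE, adjusted p = 0.00701). Their summed level was 548 to 2288 normalized counts with anti-CTLA-4 and 2708 to 3436 with anti-PD-1. Of 4 tested epithelial genes none passed (median 0.30, differences from -0.96 to 0.35), and none did after median centring. With TMM factors and with DESeq2 3 passed as higher, and with quantile normalization 2. Without sample a 1 passed as higher and 1 as lower. The sum of the 4 genes was 1510 to 2334 with anti-CTLA-4 and 1536 to 1744 with anti-PD-1, with 2088 or more in the 3 anti-CTLA-4 samples other than a. Cdh1 makes up most of that sum, and the mean log2 level of the 4 genes was 7.99 ± 0.12 with anti-CTLA-4 and 7.99 ± 0.10 with anti-PD-1 (SD, n = 4 each). Cdh1 had 1211, 1216, 764 and 1310.5 normalized counts, against 918, 886, 887 and 820.1, with sample a below every anti-PD-1 sample and the other 3 above (0.33 ± 0.17, SE, adjusted p = 0.158). Without sample a its difference was 0.50 with an adjusted p of 0.00979.

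Other cell types were represented unevenly. None of 9 tested monocyte and macrophage markers passed (median -1.07). The sum of the 13 measured was 3381 in sample a and 584 to 982 in the other anti-CTLA-4 samples, against 1199.9 to 5869 with anti-PD-1. Without sample a the median was -1.61 and 3 markers passed as lower. The mean log2 levels of Mertk, Ccr2, Marco and Trem2 were below the limit. None of 5 endothelial markers passed (median -1.39), while without sample a the median was -2.14 and 3 passed as lower. Their sum was 606 in sample a and 126 to 175 in the other anti-CTLA-4 samples, against 227 to 419 with anti-PD-1. Of 7 fibroblast and matrix genes Pdgfra rose and none fell (median -0.93). The dendritic cell marker Itgax fell by 1.40 (SE 0.50, adjusted p = 0.0377), and 9 of 11 measured dendritic markers had mean log2 levels below the limit. Hdc, the histamine-forming enzyme of mast cells and basophils that neutrophils also express, fell by 2.05 (SE 0.51, adjusted p = 0.00848), while the mean log2 levels of the mast cell genes Kit, Cpa3, Fcer1a and Tpsb2 were below the limit. Cd247, Nkg7 and Gzma of T and NK cells and both measured B cell genes were below it in all 8 samples. Gata3, the other measured gene of the T and NK cell list and also a factor of mammary luminal epithelium, was named after its values were seen. It had 189.9, 169, 185 and 164 normalized counts with anti-CTLA-4, against 129, 133, 130.4 and 123 with anti-PD-1. The groups did not overlap, and the difference of 0.45 ± 0.18 did not pass (SE, adjusted p = 0.0594), though it passed after median centring (limma adjusted p = 0.0217) and with TMM factors and DESeq2. Pan-leukocyte markers moved beside the neutrophil and inflammatory genes, and their part in the result was not tested.

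The other groups give a scale for these levels. S100a9 averaged 5209 ± 4952 normalized counts with anti-CTLA-4, 15777 ± 1974 with anti-PD-1, 9488 ± 1398 in the triple combination and 18565 ± 5130.5 with entinostat alone (SD, n = 4 each), and 5879 ± 4373 in vehicle (SD, n = 6). In that order the neutrophil markers had a mean log2 level of 7.74 ± 1.15, 9.51 ± 0.18, 8.84 ± 0.22, 9.79 ± 0.32 and 8.01 ± 0.73. The anti-CTLA-4 range of 6.87 to 9.37 covered the whole vehicle range of 7.52 to 9.35 and ended, with sample a, just under the range with entinostat alone, 9.38 to 10.15. Of the 124 lower genes, the mean of the triple combination was above that with anti-CTLA-4 in 123 and above that with anti-PD-1 in 4. The mean with entinostat alone was above them in 124 and 96, and that of vehicle in 119 and 0. These counts are descriptions, since the genes were chosen on 2 of the groups.

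**Figure D5:**
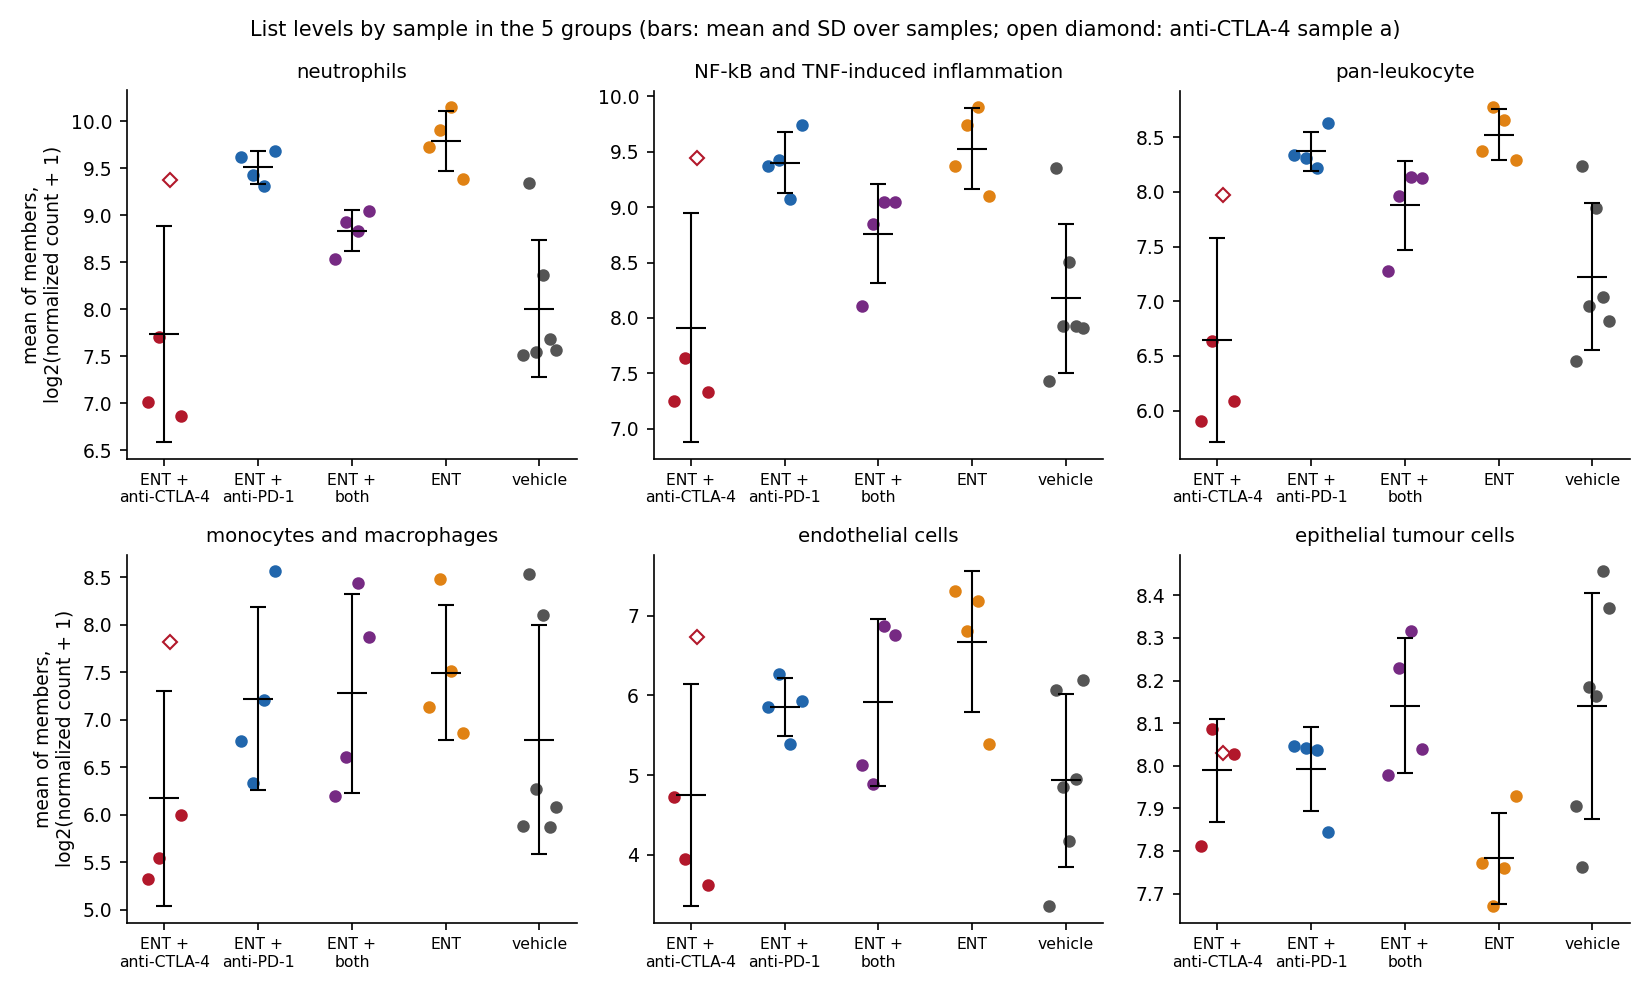
Mean log2(normalized count + 1) of the tested members of 6 marker and function lists (vertical axes, not starting at 0) in every sample of the 5 groups, with the group mean and SD as bars and sample a as an open diamond. For neutrophil, NF-kB and pan-leukocyte genes 3 anti-CTLA-4 samples lie at the level of vehicle or below it and sample a near the anti-PD-1 samples, while epithelial levels overlap between both groups.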

How the data were processed

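Per the file headers and the labels, the deposited table holds NanoString barcode counts that the authors normalized, a signal on a linear scale. How they did so is not given in the sources used here. Limma is listed, with no version, per the submitters' processing notes. Geometric means of the housekeeping genes lay between 172 and 194 normalized counts, nearly level, so a change in those genes would shift all others. Values below 1 were set to 1. Up to 200 counts, 100% of gene values were whole multiples (within 0.1 count) of 1 fixed step per sample, so barcode counts could be recovered for count tests. Control probes are unscaled counts and were multiplied by that step.

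The log2(normalized count + 1) values of all 22 samples were fitted with limma 3.58.1 in R 4.3.3 as 5 group means (17 residual and 2.14 prior degrees of freedom). A gene was tested when the mean log2 level of at least 1 of the 5 groups was above that of 29.3 normalized counts (negative controls, log2 mean plus 2 SD), and 235 of 655 genes were not. Triple combination sample 2 had 23296 gene barcode counts, the fewest of the 22 samples. In it 1 count was worth 9.78 normalized counts, and the mean negative control stood at 28.1. That sample entered the shared spread, the background limit, the cartridge block and the triple levels, and no alternative left out it alone. Medians over lists use tested members. Counts were tested with edgeR 4.0.16 and DESeq2 1.42.0 as alternatives, and the code was tested on simulated data. Groups come from sample titles, with vehicle samples V1 and V2 pooled with the other vehicle samples, and no column was left unused. Every pair of samples of one group differed by more than counting noise (chi-square at least 2.68 per degree of freedom). Sample titles number both groups from 1 to 4, but the column names of the anti-CTLA-4 group are 1, 2, 2 and 3, so samples a and b could not be matched to a title. Numbers 1 and 3 can be set side by side, and those samples correlated at 0.15 and 0.15 in their deviations, so the numbers do not establish pairs. Precision is limited by the number of samples and, near background, by the worth of 1 count.

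The genes named are those called with groups apart (the 12 largest in each direction, or all), up to 4 called members of each list with the smallest p, and 11 fixed genes (S100a8, S100a9, Cxcr2, Csf3r, Il1b, Ptgs2, Arg1, Cd274, Vegfa, Ptprc, Cdh1), with marker genes near background named as such. Of the genes under this rule, 2 are not reported here. The comparison, the 30 lists and the rule were chosen with earlier results of these data known.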

Additional observations from a re-analysis of the deposited data

Results flagged for a closer look

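In each group of 4 samples, the highest or lowest value was marked where its gap to the nearest other sample, as a share of the group's range, exceeded Dixon's 95% value. Chance marks about 1 in 20 groups, and 21 of 182 checked here were marked. The checks share the same 8 samples and include genes that move together, so these rates do not test for an excess. Values are on the log2 scale.

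In the anti-CTLA-4 group the sample was a each time, with a share of 0.912 for Fzd6, 0.853 for Cdh1, 0.915 for Cxcl1 and 0.831 for Itga5, and of 0.871 for the mean of the neutrophil-attracting CXC chemokines and 0.858 for that of the Toll-like and NOD receptors. Sample a was low in Fzd6 (115 normalized counts) and Cdh1 (764) and high in Cxcl1 (3486) and Itga5 (57.6). Neutrophil markers were not marked, since anti-CTLA-4 sample 3 lay between sample a and the other 2.

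In the anti-PD-1 group sample 4 was marked as high for Alox5 (0.966), Tlr13 (0.971), Syk (0.841), Osm (0.909) and Acod1 (0.885), and for the means of the CC chemokines (0.836) and of the suppressive effectors (0.939). It was low for Fzd6 (0.831) and for the mean of the epithelial genes (0.945). Sample 3 of that group was low for Tnfaip3 (0.830), Cxcl1 (0.848) and Cdkn1a (0.932), for the worth of 1 count (0.915), and high for the housekeeping counts before scaling (0.938). Sample 2 was high for Nr4a2 (0.842).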

How the results depend on the processing

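Each value was recomputed under 27 alternatives, of which 4 were chosen after seeing the data. Among the recomputed differences of 60 named genes 7 changed sign, all in Hif1a. Against 130 genes, the count was 0 with the 8 samples alone (151 at an unadjusted p under 0.05), 2 with the cartridge as a block, 2 with that block and median centring, 69 with edgeR on the deposited scaling, 198 with DESeq2, 288 with sample weights, 211 with the cartridge block and without sample a, 281 with median centring without a and 299 with edgeR and TMM without a. The sample weights, estimated from these same data, were 0.108 for sample a and 1.87 to 1.98 for anti-CTLA-4 samples 1, 3 and b, so that fit largely set sample a aside. Leaving out 1 sample gave 49 (without anti-CTLA-4 sample 1) to 207 (without a), with 52 without b, and the cause was not tested. The median log2 difference over all tested genes, -0.45, was 0.035 after median centring, 0.18 after quantile normalization, 0.024 with TMM and 0.038 with DESeq2, which remove a shared shift by construction. It was -0.93 with the cartridge block without a, -0.054 with the block and median centring, 0.0096 with median centring without a and 0.0016 with TMM without a. Hif1a turned positive under median centring (0.029), quantile normalization (0.21), DESeq2 (0.036), TMM (0.023), the cartridge block with median centring (0.26), median centring without a (0.084) and TMM without a (0.092).

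With the replicate block, in which samples of the same number share a block across all groups, 151 genes passed, 148 lower and 3 higher. The labels do not establish this pairing, and between the groups compared it pairs only samples numbered 1 and 3.

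In 24 of the 124 lower genes the anti-CTLA-4 mean log2 level lay under the background limit, and in 4 the anti-PD-1 one did. No background was subtracted, and it stood at 1.96 to 8.31 normalized counts with anti-CTLA-4 and 8.63 to 10.4 with anti-PD-1. Subtracting it left 104 lower and 8 higher genes.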
